A study of Mus musculus with 18 samples.

Results

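Collagens were measured in O9-1 NC cells, an established line of mouse neural crest cells, by bulk RNA-seq of polyadenylated RNA. The collagen genes were taken as every protein-coding gene with a symbol of the form Col, a number, a and a number, which gave 44 of the 55335 gene identifiers counted. They were sorted by textbook class into 11 fibrillar, 9 network-forming, 9 FACIT (fibril-associated collagens with interrupted triple helices) and 15 other genes. All 18 libraries came from wildtype cells of this 1 line in osteoblast differentiation medium, with 3 libraries in each of 3 groups at d2.5 and again at d5. Ctrl+vehicle cells had scrambled siRNA and no FGF2, Ctrl+FGF2 cells had scrambled siRNA and FGF2, and Y/T dKD+FGF2 cells had siRNA pools against Yap (the gene Yap1) and Taz (the gene Wwtr1) together with FGF2. There was no group with the double knockdown (dKD) and no FGF2, so the knockdown could be set against its control siRNA in the presence of FGF2 alone. The labels give each day as its own batch, so day and batch cannot be told apart, and they do not say whether the 3 libraries of a group came from separate cultures. P-values therefore measure the spread between these libraries, which may be technical.

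Collagens are extracellular proteins in which chains wind in threes into a triple helix, and each chain is encoded by its own gene. Fibrillar collagens, above all type I with its Col1a1 and Col1a2 chains, form the banded fibrils of bone, skin and tendon. Types II and XI form the fibrils of cartilage. Network-forming collagens make sheets, such as type IV in every basement membrane and the hexagonal lattices of types VIII and X. FACIT collagens coat the surface of fibrils, and type VI makes beaded filaments around cells. Type I collagen is the main protein of bone matrix and its genes are widely used to follow osteoblasts, while type X marks hypertrophic cartilage.

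The libraries held 10377151 to 14698525 gene counts each, with a median of 12330911. Levels are given as normalised CPM, which are counts scaled to library size with TMM factors of the 18 libraries, or as RPKM, which are the same per kilobase of exon and allow genes to be compared. A gene is called where the edgeR quasi-likelihood test gave a Benjamini-Hochberg adjusted p under 0.05 over all genes tested. Fold changes are log2 values ± SE. Yap1 stood at 126 to 131 CPM in Ctrl+FGF2 and 65.2 to 69.5 CPM in Y/T dKD+FGF2 at d2.5. At d5 it stood at 147 to 159 CPM and 67.2 to 73.9 CPM. Wwtr1 went from 219 to 224 CPM to 130 to 142 CPM at d2.5 and from 213 to 218 CPM to 122 to 128 CPM at d5, so both targets were lowered and still present. The 8 neural crest and mesenchyme markers (Twist1, Prrx1, Vim and others) were all detected and summed to 5082 to 7983 CPM over the libraries. Endothelial, immune and epithelial markers each summed to less than 6 CPM in every library, and Schwann and glial markers to less than 14 CPM. Smooth muscle markers (6 genes, all with counts in Ctrl+vehicle and Ctrl+FGF2) summed to 264 to 363 CPM in Ctrl+vehicle, 80.0 to 88.7 CPM in Ctrl+FGF2 and 66.1 to 75.7 CPM in Y/T dKD+FGF2 at d2.5. At d5 they summed to 2387 to 2552, 3221 to 3652 and 2729.8 to 2911 CPM, so they moved with the day and with FGF2, and their part in the collagen results was not tested.

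The sequence just upstream of 3 members with unlike patterns is shown, as context for the levels of these genes. Col3a1 is one of the most abundant fibrillar genes, Col10a1 was below 1 CPM in Ctrl+FGF2 at d2.5, and Col8a1 is a network gene that rose with FGF2 at d2.5. At d5 Col3a1 and Col8a1 were both lower with FGF2. The windows are the 250 bases before the RefSeq start, read 5′ to 3′ on the strand of the gene (GRCm38.p6), at chr1:45311288-45311537 (plus strand), chr10:34389731-34389980 (plus strand) and chr16:57754738-57754987 (minus strand), and none overlaps an annotated exon. Capitals mark matches, on either strand, to GGAATG (the core bound by TEAD factors, the DNA-binding partners of Yap and Taz), TATAAA (the TATA box), GGGCGG (the GC box) or the CCAAT box.
Col3a1 upstream: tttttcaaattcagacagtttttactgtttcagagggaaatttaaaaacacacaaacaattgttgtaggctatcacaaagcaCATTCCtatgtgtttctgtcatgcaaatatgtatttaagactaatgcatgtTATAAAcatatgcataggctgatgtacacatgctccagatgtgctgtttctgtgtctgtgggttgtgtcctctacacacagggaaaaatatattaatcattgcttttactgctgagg
Col10a1 upstream: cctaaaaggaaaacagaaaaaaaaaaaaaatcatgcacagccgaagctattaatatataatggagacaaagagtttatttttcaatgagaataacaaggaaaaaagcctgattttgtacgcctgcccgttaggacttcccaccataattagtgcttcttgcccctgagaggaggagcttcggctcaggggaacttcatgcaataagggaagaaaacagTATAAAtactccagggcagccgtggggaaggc
Col8a1 upstream: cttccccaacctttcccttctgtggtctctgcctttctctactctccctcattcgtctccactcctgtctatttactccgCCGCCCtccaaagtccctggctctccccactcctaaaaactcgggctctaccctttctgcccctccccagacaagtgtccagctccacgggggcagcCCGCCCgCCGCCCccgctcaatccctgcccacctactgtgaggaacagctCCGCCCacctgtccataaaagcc
The Col3a1 window held TATAAA from -117 to -112 and, on the opposite strand, GGAATG from -168 to -163 (read as CATTCC). The Col10a1 window held TATAAA from -32 to -27. The Col8a1 window held 4 GC boxes (read as CCGCCC), from -170 to -165, -73 to -68, -66 to -61 and -23 to -18. Windows were at hand for 35 of the 44 genes (38 windows, since some genes have more than 1). GGAATG was in 4 of the 38 windows against 12.6% of all 32851 windows of the same length, TATAAA in 5 against 12.4%, GGGCGG in 22 against 32.7% and CCAAT in 13 against 33.9%. A match describes letters in the window and is not a site of binding.

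Collagen genes took up a large part of the mRNA, and this part was smaller with FGF2 on both days. At d2.5 they held 5.42%, 5.20% and 5.28% of the gene counts in the libraries of Ctrl+vehicle, 1.74%, 1.69% and 1.71% in those of Ctrl+FGF2 and 1.61%, 1.69% and 1.61% in those of Y/T dKD+FGF2. At d5 the shares were 10.8%, 10.6% and 10.8%, then 6.77%, 7.36% and 7.28%, then 8.46%, 8.82% and 8.51%. The groups did not overlap in any of the 6 comparisons within a day. The mean share in Ctrl+FGF2 minus that in Ctrl+vehicle was -3.58 percentage points at d2.5 and -3.59 points at d5. That in Y/T dKD+FGF2 minus that in Ctrl+FGF2 was -0.0811 points at d2.5 and 1.46 points at d5. Each gave p = 0.1 in an exact two-sided permutation test, the smallest that 3 against 3 libraries allow. In bulk RNA, fewer cells that make collagen and less collagen mRNA per cell cannot be told apart.

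**Figure D1:**
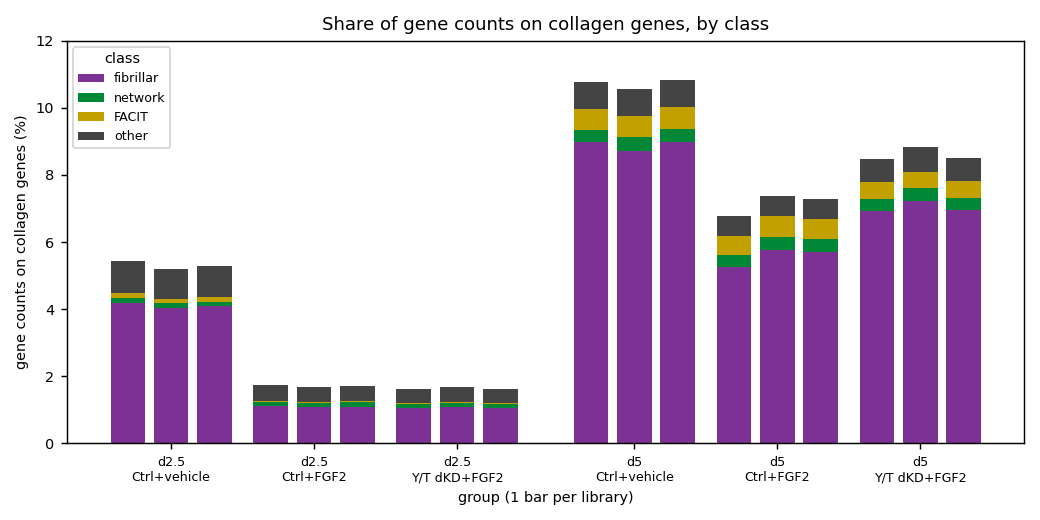
Share of the gene counts of each library (%, y axis, 1 bar per library, grouped by day and treatment on the x axis) that fell on collagen genes, stacked by class. Fibrillar genes make up most of every bar, and the bars are lowest with FGF2 at d2.5, between 1.61% and 1.74%.

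Compared per length, the type I chains were first and second in 4 of the 6 groups, and Col6a1 stood between them in the other 2, an order that depends on the exon lengths used. In Ctrl+vehicle at d2.5 the highest RPKM were those of Col1a1 (1923 ± 20.5, SD, n = 3), Col1a2 (1415 ± 5.75) and Col6a1 (979.9 ± 22.9), followed by Col3a1 (417 ± 26.3) and Col6a2 (415 ± 5.26), which differed by less than their spread. In Ctrl+FGF2 at d2.5 Col1a2 (469 ± 3.07) and Col6a1 (464 ± 10.1) were first and differed by less than their spread, ahead of Col1a1 (335 ± 8.92). By d5 the order was Col1a1, Col1a2, Col3a1 and Col6a1 in all 3 groups. Summed over members, fibrillar genes held 70.5% of the collagen RPKM in Ctrl+vehicle at d2.5, 52.8% with FGF2 and 54.3% with FGF2 and the knockdown. At d5 they held 80.8%, 75.3% and 78.7% in the same order. Network genes held 3.17% in Ctrl+vehicle and 8.70% in Ctrl+FGF2 at d2.5, and 4.65% and 6.85% at d5. As a share of all gene counts they did not rise, with means of 0.133% and 0.130% at d2.5 and 0.388% and 0.371% at d5.

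With FGF2 at d2.5 most collagen genes were lower. Of the 44 members, 30 passed the filter on low counts at d2.5. Of these, 24 were called lower and 5 higher in Ctrl+FGF2 than in Ctrl+vehicle, where 34.1% of all genes tested were called lower and 33.5% higher, and the median log2 fold change of the members was -1.47 (0.00 over all genes). A member that passed the filter through its high Ctrl+vehicle level alone had to differ, so the 22 members with a mean of at least 10 CPM over the 9 libraries of d2.5 were also counted. Of these, 18 were called lower and 4 higher (median -1.36). That mean includes Ctrl+vehicle, so the count removes the problem only in part. Col2a1, Col8a2 and Col10a1 were among the 22 though below 10 CPM in every FGF2-treated library. All 10 fibrillar members tested and all 5 FACIT members tested were called lower, network members split into 3 higher and 4 lower, and the other members into 2 higher and 5 lower. Among these, the fibrillar Col11a2 and the FACIT members Col9a1, Col9a2 and Col9a3 had 8 counts or fewer in every FGF2-treated library. They passed the filter through Ctrl+vehicle and had to be lower, which leaves Col12a1 and Col16a1 of the FACIT members. At d5 the difference was smaller: of 31 members tested 19 were called lower (background 23.7%) and 8 higher (background 23.5%), with a median of -0.22. Of the 24 members with a mean of at least 10 CPM at d5, 17 were called lower and 5 higher (median -0.38). This mean too includes Ctrl+vehicle, and Col11a2 was among the 24 though below 10 CPM in every FGF2-treated library. Of the members called at d5, Col9a1 passed the filter through Ctrl+vehicle and had to be lower. Col25a1 passed through the FGF2-treated libraries and had to be higher.

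The knockdown in the presence of FGF2 moved collagen genes both ways at d2.5, and at d5 more of those called were higher than lower. At d2.5, of 30 members tested 6 were called higher (background 10.8%) and 8 lower (background 13.6%) in Y/T dKD+FGF2 than in Ctrl+FGF2, with a median of -0.01. The 6 called higher at d2.5 were 7 without Ctrl+vehicle replicate 1 or 2 and 3 without Y/T dKD+FGF2 replicate 2 or 3. Col25a1, among the 6, passed the filter through the knockdown libraries and had to be higher. At d5, of 31 members tested 16 were called higher (background 15.6%) and 6 lower (background 16.1%), with a median of 0.27. Among them were 7 of the 11 fibrillar members called higher and 1 lower. Set against Ctrl+vehicle, Y/T dKD+FGF2 had 24 members lower (background 35.7%) and 4 higher (background 34.1%) at d2.5, and 13 lower (background 21.1%) and 9 higher (background 20.7%) at d5, with medians of -1.65 and -0.08. The 3 comparisons of a day share libraries, so their counts are not independent of each other.

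**Figure D2:**
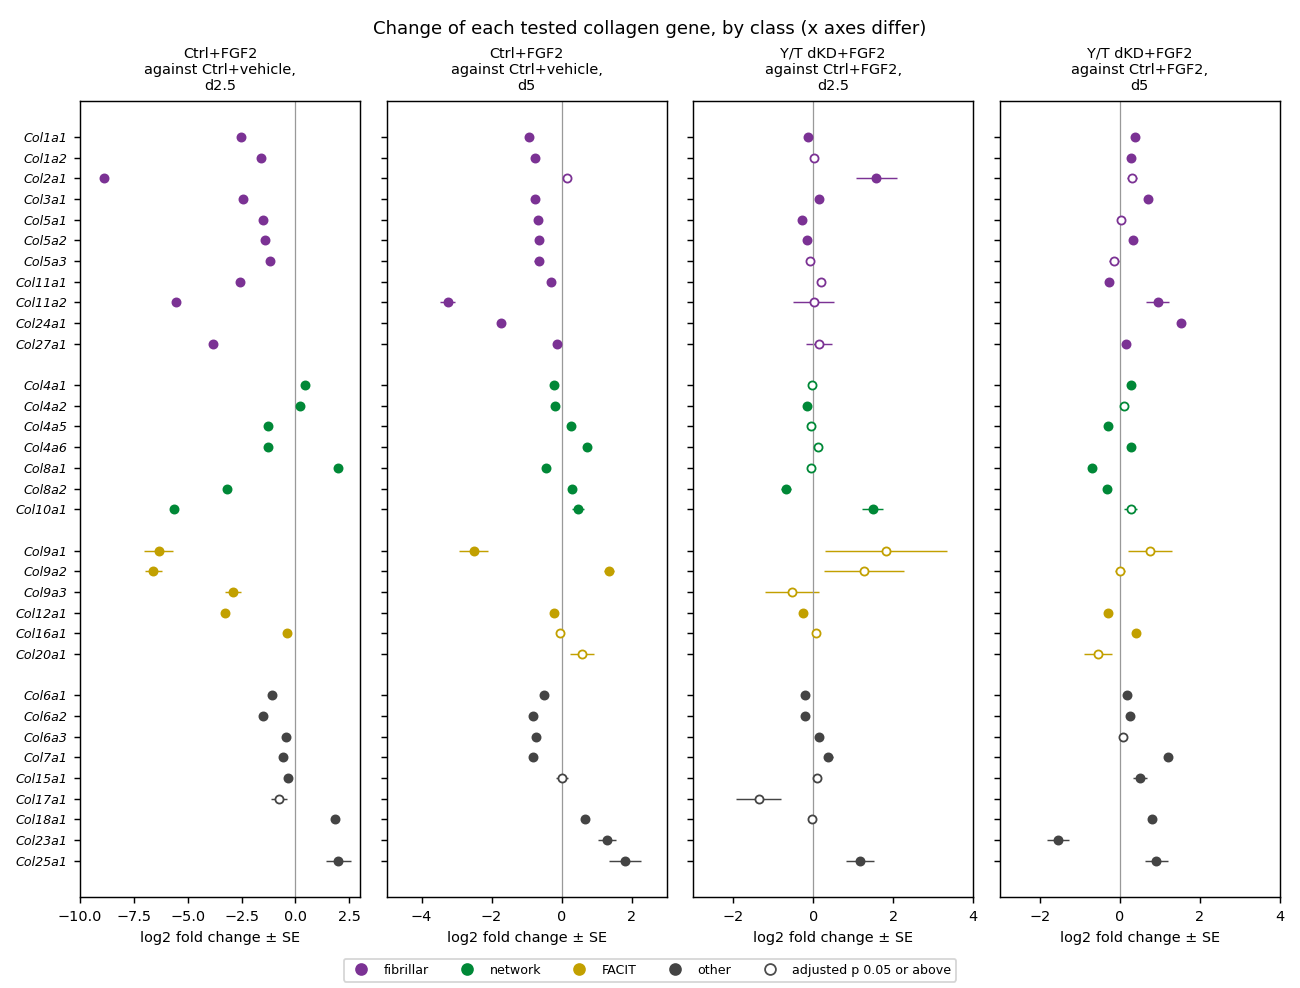
Log2 fold change ± SE (x axis, ranges differ between panels) of each collagen gene tested (y axis, grouped and coloured by class) for Ctrl+FGF2 against Ctrl+vehicle and Y/T dKD+FGF2 against Ctrl+FGF2 at d2.5 and d5. Filled points passed the threshold of 0.05 and open points did not. At d2.5 the points of the first panel lie left of 0 except for 0.45 (Col4a1), 0.20 (Col4a2), 1.97 (Col8a1), 1.84 (Col18a1) and 1.98 (Col25a1).

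Among fibrillar genes, the chains of types I, III and V fell severalfold with FGF2 at d2.5 and less at d5. Col1a1 (chr11:94936224-94953042), the main chain of bone collagen, stood at 12774, 12519 and 12575 CPM in Ctrl+vehicle, 2259, 2141 and 2202 CPM in Ctrl+FGF2 and 1985, 2089 and 1946 CPM in Y/T dKD+FGF2 at d2.5. It stood at 32667, 30584 and 32406 CPM in Ctrl+vehicle, 15489.7, 17312 and 17087 CPM in Ctrl+FGF2 and 21389, 22675 and 21386 CPM in Y/T dKD+FGF2 at d5. The 3 groups did not overlap on either day: FGF2 libraries were below vehicle libraries on both, and knockdown libraries were the lowest at d2.5 and between the other groups at d5. The log2 fold change of Ctrl+FGF2 against Ctrl+vehicle was -2.53 ± 0.03 (edgeR adjusted p = 1.44e-33) at d2.5 and -0.93 ± 0.04 (edgeR adjusted p = 3.07e-11) at d5. That of Y/T dKD+FGF2 against Ctrl+FGF2 was -0.14 ± 0.03 (edgeR adjusted p = 0.000489) at d2.5 and 0.39 ± 0.04 (edgeR adjusted p = 2.54e-06) at d5. Col1a2 (chr6:4504814-4541544), its partner chain, stood at 17658, 17549.9 and 17523 CPM in Ctrl+vehicle, 5867, 5793 and 5814 CPM in Ctrl+FGF2 and 5894, 5983 and 5805 CPM in Y/T dKD+FGF2 at d2.5. At d5 it stood at 38603, 38009.8 and 38332 CPM in Ctrl+vehicle, 21078, 23738 and 22968 CPM in Ctrl+FGF2 and 27106, 28134 and 27202 CPM in Y/T dKD+FGF2. FGF2 libraries were below vehicle libraries on both days, and knockdown libraries overlapped with Ctrl+FGF2 at d2.5 and lay above them at d5. Col1a2 changed by -1.60 ± 0.02 with FGF2 at d2.5 and -0.75 ± 0.04 at d5, and with the knockdown by 0.28 ± 0.04 at d5 (edgeR adjusted p = 3.83e-05), while the d2.5 value of 0.01 ± 0.02 did not pass (edgeR adjusted p = 0.848).

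Col3a1 (chr1:45311538-45349706), the chain of type III collagen, found beside type I in soft tissue, moved most of these with the knockdown at d5. It stood at 4369, 3857 and 4059 CPM in Ctrl+vehicle, 760.2, 749.9 and 752 CPM in Ctrl+FGF2 and 849, 824 and 843 CPM in Y/T dKD+FGF2 at d2.5. Its d5 levels were 15688, 17055 and 16397 CPM in Ctrl+vehicle, 8929, 9977 and 9642 CPM in Ctrl+FGF2 and 14576, 16416 and 15523 CPM in Y/T dKD+FGF2. The d5 knockdown libraries overlapped with Ctrl+vehicle and were all above Ctrl+FGF2. Its fold change with FGF2 was -2.45 ± 0.03 at d2.5 and -0.77 ± 0.05 at d5, and with the knockdown 0.14 ± 0.03 (edgeR adjusted p = 0.00156) at d2.5 and 0.70 ± 0.05 (edgeR adjusted p = 3.91e-09) at d5. Y/T dKD+FGF2 differed from Ctrl+vehicle at d5 by -0.07 ± 0.05 (edgeR adjusted p = 0.229), which did not pass. Col5a1 (chr2:27886425-28039514), a chain of type V, which sits inside type I fibrils and limits their width, stood at 1497, 1471 and 1458 CPM in Ctrl+vehicle, 530.3, 517 and 519 CPM in Ctrl+FGF2 and 423, 452 and 423 CPM in Y/T dKD+FGF2 at d2.5. At the later day the levels were 2533, 2464 and 2540.0 CPM in Ctrl+vehicle, 1484, 1642 and 1589.9 CPM in Ctrl+FGF2 and 1556, 1674 and 1587 CPM in Y/T dKD+FGF2. Knockdown libraries were below Ctrl+FGF2 at d2.5 (-0.28 ± 0.03, edgeR adjusted p = 1.27e-07) and overlapped with them at d5 (0.02 ± 0.04, edgeR adjusted p = 0.695). Its partner Col5a2, which lies 24614 bases from Col3a1 on chromosome 1 in the opposite direction, changed by -1.43 with FGF2 at d2.5 and -0.66 at d5, and by -0.16 and 0.33 with the knockdown. Col5a3, another chain of this type at 6.29 to 29.9 CPM, changed by -1.19 and -0.66 with FGF2, and its knockdown values of -0.07 and -0.15 did not pass.

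**Figure D3:**
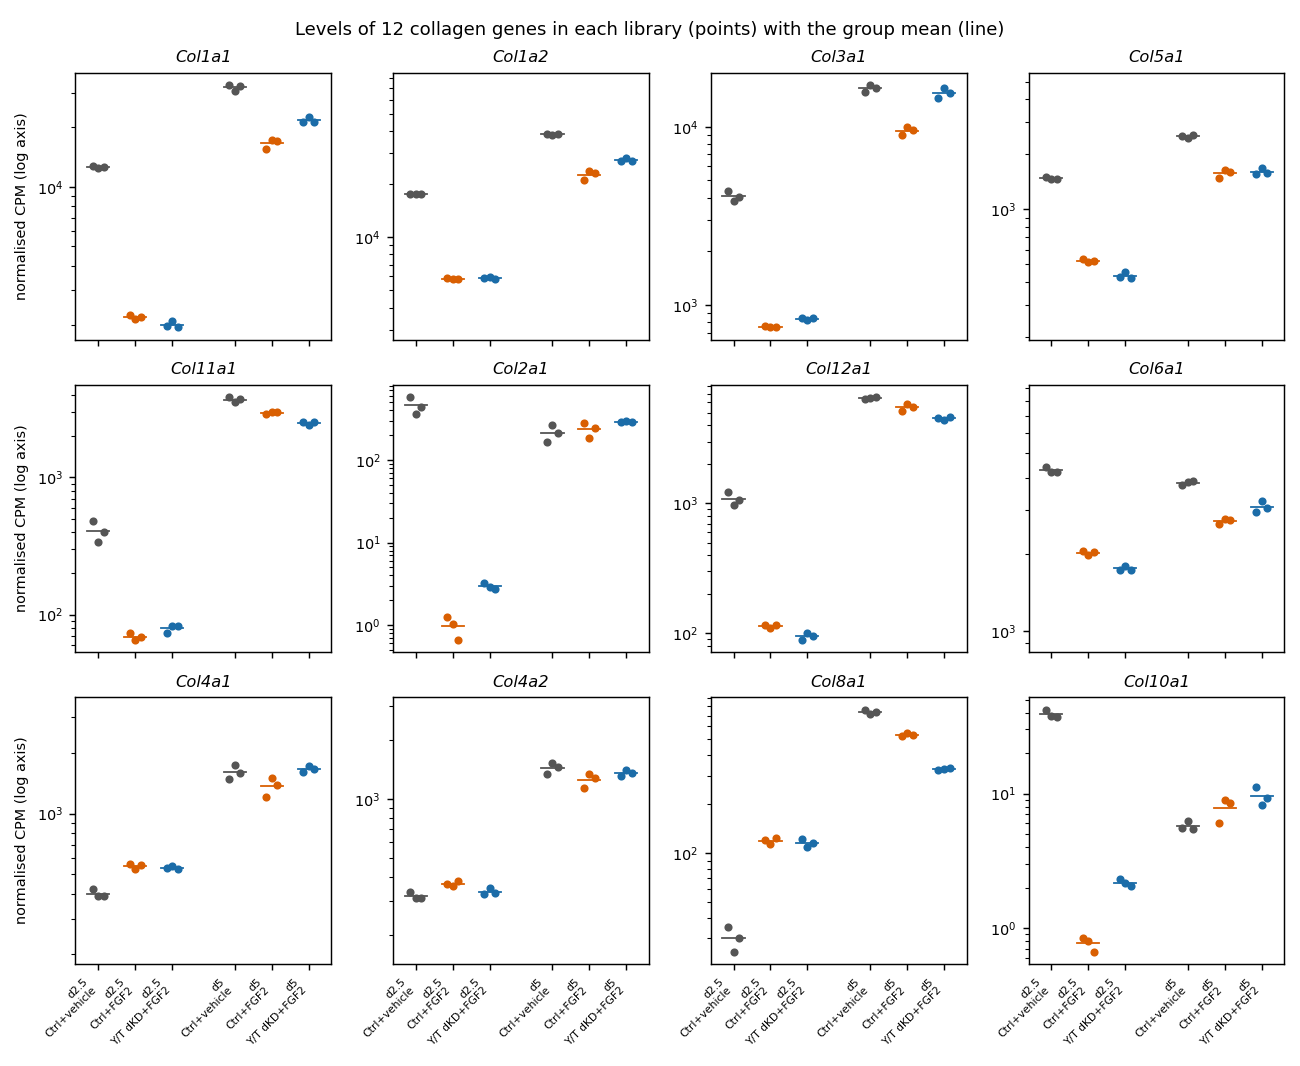
Normalised CPM (y axis, log scale, range differs between panels) of 12 collagen genes in each of the 18 libraries (points, 3 per group on the x axis) with the group mean (line). Col2a1 and Col10a1 are near or below 3 CPM in all FGF2-treated libraries at d2.5, and Col4a1, Col4a2 and Col8a1 are not lower there than in Ctrl+vehicle.

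Of the cartilage collagens, the type II chain was nearly lost with FGF2 at d2.5 and overlapped with vehicle levels at d5, while both type XI chains were lower with FGF2 on both days. Col2a1 (chr15:97975602-98004695), the type II chain, stood at 575, 362 and 443 CPM in Ctrl+vehicle, 1.27, 1.02 and 0.668 CPM in Ctrl+FGF2 and 3.23, 2.87 and 2.76 CPM in Y/T dKD+FGF2 at d2.5. FGF2-treated libraries were far lower than vehicle libraries there, and knockdown libraries were all above Ctrl+FGF2 libraries. For d5 the values were 164, 264 and 211 CPM in Ctrl+vehicle, 278, 185 and 243 CPM in Ctrl+FGF2 and 293, 298 and 287 CPM in Y/T dKD+FGF2, where Ctrl+FGF2 overlapped with Ctrl+vehicle and the knockdown libraries were above both. Its fold change with FGF2 was -8.87 ± 0.18 (edgeR adjusted p = 1.15e-27) at d2.5 and 0.15 ± 0.13 (edgeR adjusted p = 0.355) at d5. With the knockdown it was 1.57 ± 0.51 (edgeR adjusted p = 0.0237) at d2.5, a call on 111 counts against 42. That call was lost when any of 4 libraries was left out (edgeR adjusted p from 0.0553 to 0.0816) and in 1 fit of all 18 libraries (edgeR adjusted p = 0.105). At d5 the fold change with the knockdown was 0.31 ± 0.13 (edgeR adjusted p = 0.0746), and passed when any of 3 libraries was left out (edgeR adjusted p from 0.00827 to 0.0174). The d5 value with FGF2 passed without Ctrl+vehicle replicate 2 or Ctrl+FGF2 replicate 2 (edgeR adjusted p = 0.018 and 0.0305).

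Col11a1 (chr3:114030540-114220718), a type XI chain also made outside cartilage, stood at 482, 338 and 403 CPM in Ctrl+vehicle, 73.3, 65.9 and 68.5 CPM in Ctrl+FGF2 and 73.5, 82.1 and 82.8 CPM in Y/T dKD+FGF2 at d2.5. Values at d5 were 3812, 3507 and 3692 CPM in Ctrl+vehicle, 2877, 3008 and 2983 CPM in Ctrl+FGF2 and 2519.6, 2395 and 2504 CPM in Y/T dKD+FGF2, with the 3 groups apart and the knockdown libraries lowest. It changed by -2.57 ± 0.08 with FGF2 at d2.5 and -0.30 ± 0.04 at d5, and by -0.26 ± 0.04 (edgeR adjusted p = 4.39e-05) with the knockdown at d5, where Col1a1 and Col3a1 rose. At d2.5 its knockdown value of 0.19 ± 0.09 (edgeR adjusted p = 0.11) did not pass, and passed without Ctrl+vehicle replicate 1 or 2 (edgeR adjusted p = 0.00513 and 0.00913). Col11a2, its cartilage partner, stood at 22.9, 16.9 and 19.996 CPM in Ctrl+vehicle and 0.281, 0.582 and 0.401 CPM in Ctrl+FGF2 at d2.5. At d5 it was still low with FGF2, at 24.0, 47.1 and 32.6 CPM in Ctrl+vehicle, 3.49, 3.17 and 4.22 CPM in Ctrl+FGF2 and 6.46, 7.80 and 6.72 CPM in Y/T dKD+FGF2. Its fold change with FGF2 was -5.55 ± 0.20 at d2.5 and -3.25 ± 0.22 at d5. The d5 rise with the knockdown (0.95 ± 0.29, edgeR adjusted p = 0.0175) did not pass without Ctrl+FGF2 replicate 2 or Y/T dKD+FGF2 replicate 2 (edgeR adjusted p = 0.0536 and 0.074).

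The 3 chains of type IX, a FACIT collagen of cartilage fibrils, went the same way at d2.5 and parted at d5. All 3 passed the filter at d2.5 through Ctrl+vehicle, so they had to be lower with FGF2 there. Col9a1 had 113 counts over the 3 Ctrl+vehicle libraries and 1 over the 3 Ctrl+FGF2 libraries at d2.5, a ratio of 113 with a 95% exact interval of 19.9 to 4500.0 that covers counting error only. At d2.5 Col9a2 stood at 13.9, 7.61 and 8.03 CPM in Ctrl+vehicle, 0.141, 0 and 0.134 CPM in Ctrl+FGF2 and 0.165, 0.233 and 0.316 CPM in Y/T dKD+FGF2. Vehicle libraries were above all FGF2-treated ones, and Ctrl+FGF2 and knockdown libraries were near 0. Over the libraries of a group Col9a2 had 423 counts in Ctrl+vehicle against 4 in Ctrl+FGF2, a ratio of 106 (interval 41.0 to 389.7), and Col9a3 fell by 2.89 on the log2 scale. At d5 Col9a2 stood at 17.98, 32.3 and 23.5 CPM in Ctrl+vehicle, 75.3, 53.5 and 60.3 CPM in Ctrl+FGF2 and 63.1, 67.3 and 59.5 CPM in Y/T dKD+FGF2. FGF2-treated libraries were then all above vehicle libraries (1.35 ± 0.14, edgeR adjusted p = 4.88e-07), while Col9a1 was lower with FGF2 (-2.51 ± 0.42, edgeR adjusted p = 8.27e-05) and Col9a3 was at no more than 0.51 CPM and not tested. At d5 Col9a1 had 102 counts over the Ctrl+vehicle libraries (1.61 to 4.83 CPM) and 18 over those of Ctrl+FGF2. Col9a1 passed the filter through Ctrl+vehicle on this day too, so it had to be lower with FGF2. The knockdown changed none of these 3 past the threshold on either day where they were tested, at a precision of 0.12 (SE, log2) for Col9a2 at d5 and 1.52 for Col9a1 at d2.5.

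Chondrocyte markers moved along at d2.5. The 11 genes of that list (Sox9, Acan, Hapln1 and others) summed to 435 to 471 CPM in Ctrl+vehicle, 142 to 153 CPM in Ctrl+FGF2 and 149 to 157 CPM in Y/T dKD+FGF2, and all 4 that were tested were called lower with FGF2 (background 34.1%), among them Hapln1 (-3.42) and Sox9 (-1.04). At d5 the sums were 222 to 233, 208 to 229 and 180.4 to 184 CPM, and of 6 tested 3 were higher (background 23.5%) and 3 lower (background 23.7%) with FGF2. Between 3 and 4 of the 11 had no count in a group. Their part in the collagen results was not tested. Osteoblast markers (10 genes) summed to 4659 to 4738 CPM in Ctrl+vehicle, 7459 to 7589.8 CPM in Ctrl+FGF2 and 9590.1 to 10223 CPM in Y/T dKD+FGF2 at d2.5. Of the 9 tested then, 6 were lower with FGF2 (background 34.1%), led by Alpl (-9.61), and 3 higher (background 33.5%), led by Dmp1 (5.25). At d5 the sums were 1745 to 1874, 1909 to 2347 and 3131 to 3521 CPM, with 5 of 10 higher and 5 lower with FGF2 (background 23.5% and 23.7%). With the knockdown 5 of 9 were higher at d2.5 (background 10.8%) and 9 of 10 at d5 (background 15.6%), and none was called lower (background 13.6% and 16.1%). The part of these genes' cells in the collagen results was likewise not tested.

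The other 2 fibrillar genes, Col27a1 and Col24a1, are minor chains. Col27a1, found in cartilage and other tissues, stood at 14.5 to 17.4 CPM in Ctrl+vehicle and 0.945 to 1.20 CPM in Ctrl+FGF2 at d2.5 (-3.85 ± 0.18), and at 73.3 to 80.0 and 66.0 to 73.3 CPM at d5 (-0.14 ± 0.05). Col24a1, found in developing bone, was at 0.699 CPM or less in every d2.5 library and was not tested there. By d5 the values were 24.8, 25.8 and 27.3 CPM in Ctrl+vehicle, 6.34, 8.62 and 8.17 CPM in Ctrl+FGF2 and 20.1, 23.7 and 23.6 CPM in Y/T dKD+FGF2. FGF2 libraries were below the libraries of both other groups, with -1.73 ± 0.11 (edgeR adjusted p = 8.75e-10) for FGF2 and 1.53 ± 0.11 (edgeR adjusted p = 1.05e-08) for the knockdown. The latter was the largest called rise of a member with the knockdown at d5.

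Of the FACIT genes not of type IX, Col12a1 and Col16a1 were abundant. Col12a1 (chr9:79598991-79718831), which binds type I fibrils, stood at 1226, 969 and 1071 CPM in Ctrl+vehicle, 116, 109.6 and 115 CPM in Ctrl+FGF2 and 89.4, 99.5 and 95.4 CPM in Y/T dKD+FGF2 at d2.5. On d5 the libraries read 6428, 6448 and 6563 CPM in Ctrl+vehicle, 5193, 5813 and 5572 CPM in Ctrl+FGF2 and 4581, 4389 and 4615 CPM in Y/T dKD+FGF2. The groups were apart on both days and knockdown libraries were the lowest. Col12a1 changed by -3.27 ± 0.06 with FGF2 at d2.5 and -0.22 ± 0.04 at d5, and by -0.27 ± 0.06 (edgeR adjusted p = 0.00162) and -0.29 ± 0.04 (edgeR adjusted p = 1.93e-05) with the knockdown. Col16a1, at 159.5 to 222 CPM at d2.5 and 523 to 769.9 CPM at d5, fell by 0.41 on the log2 scale with FGF2 at d2.5 and rose by 0.40 with the knockdown at d5. Col20a1, at 1.63 CPM or less, did not pass in any of the 3 comparisons within d5.

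Network-forming genes split in both directions at d2.5. Col4a1 (chr8:11198423-11312826) and Col4a2 (chr8:11312805-11449287), the chains of the common type IV collagen, are transcribed away from each other from starts that share 22 bases (chr8:11312805-11312826). At d2.5 Col4a1 stood at 421, 388 and 392 CPM in Ctrl+vehicle, 559, 534 and 557 CPM in Ctrl+FGF2 and 535, 551 and 531 CPM in Y/T dKD+FGF2. Col4a2 stood at 334, 312 and 310.4 CPM in Ctrl+vehicle, 369, 359.6 and 379 CPM in Ctrl+FGF2 and 326, 351 and 331 CPM in Y/T dKD+FGF2. Both were higher in every FGF2 library than in any vehicle library, and the knockdown libraries of Col4a2 overlapped with Ctrl+vehicle. The fold change with FGF2 was 0.45 ± 0.03 (edgeR adjusted p = 3.04e-13) for Col4a1 and 0.20 ± 0.04 (edgeR adjusted p = 1.13e-05) for Col4a2. At d5 Col4a1 stood at 1482, 1746 and 1595 CPM in Ctrl+vehicle, 1208, 1499 and 1383 CPM in Ctrl+FGF2 and 1604, 1727 and 1657 CPM in Y/T dKD+FGF2. Col4a2 stood at 1338, 1535 and 1460.3 CPM in Ctrl+vehicle, 1140.5, 1348 and 1282 CPM in Ctrl+FGF2 and 1309.7, 1412 and 1355 CPM in Y/T dKD+FGF2. The vehicle and FGF2 libraries then overlapped for both genes, at -0.22 ± 0.06 (edgeR adjusted p = 0.00718) for Col4a1 and -0.19 ± 0.05 (edgeR adjusted p = 0.00871) for Col4a2, and neither passed with library totals alone as scaling (edgeR adjusted p = 0.0947 and 0.176). With the knockdown Col4a1 rose by 0.28 ± 0.06 at d5, while the Col4a2 value was 0.11 ± 0.05 (edgeR adjusted p = 0.154), which passed without Ctrl+FGF2 replicate 2 (edgeR adjusted p = 0.0297). At d2.5 the knockdown gave -0.04 ± 0.03 (edgeR adjusted p = 0.434) for Col4a1 and -0.15 ± 0.04 (edgeR adjusted p = 0.00314) for Col4a2, and Col4a2 in Y/T dKD+FGF2 against Ctrl+vehicle (0.05 ± 0.04, edgeR adjusted p = 0.176) passed without Ctrl+vehicle replicate 1 (edgeR adjusted p = 0.0218).

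Col4a5 and Col4a6, the type IV chains on the X chromosome, also lie head to head, 1308 bases apart. With FGF2 at d2.5 both fell by 1.29 on the log2 scale, and at d5 they were higher, by 0.27 and 0.72. With the knockdown at d5 they went opposite ways, Col4a5 at -0.28 ± 0.04 (edgeR adjusted p = 7.7e-06) and Col4a6 at 0.28 ± 0.05 (edgeR adjusted p = 0.000375). The remaining pair, Col4a3 and Col4a4, 71 bases apart on chromosome 1, had 2 and 3 counts over all 18 libraries. Col8a1 and Col8a2, the chains of type VIII, moved apart with FGF2 at d2.5. Col8a1 stood at 35.4, 24.9 and 30.3 CPM in Ctrl+vehicle, 120.0, 113 and 123 CPM in Ctrl+FGF2 and 122, 109 and 116 CPM in Y/T dKD+FGF2. Col8a2 stood at 63.8, 62.4 and 61.9 CPM in Ctrl+vehicle, 6.61, 6.54 and 7.41 CPM in Ctrl+FGF2 and 4.05, 3.96 and 4.89 CPM in Y/T dKD+FGF2. FGF2-treated libraries were above vehicle libraries for Col8a1 (1.97 ± 0.07, edgeR adjusted p = 7.25e-22) and below them for Col8a2 (-3.20 ± 0.07, edgeR adjusted p = 5.81e-26). At d5 Col8a1 stood at 763, 711 and 740.4 CPM in Ctrl+vehicle, 522, 545 and 536 CPM in Ctrl+FGF2 and 326, 330.1 and 332 CPM in Y/T dKD+FGF2, with the 3 groups apart and the order turned round, at -0.45 ± 0.04 (edgeR adjusted p = 1.61e-08) with FGF2 and -0.70 ± 0.04 (edgeR adjusted p = 1.66e-10) with the knockdown. At d5 Col8a2 changed by 0.30 with FGF2 and -0.31 with the knockdown, after a fall of 0.68 with the knockdown at d2.5.

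Col10a1 (chr10:34389981-34397085), the type X chain of hypertrophic cartilage, stood at 42.2, 37.6 and 37.2 CPM in Ctrl+vehicle, 0.844, 0.8 and 0.668 CPM in Ctrl+FGF2 and 2.32, 2.18 and 2.05 CPM in Y/T dKD+FGF2 at d2.5. Its d5 levels were 5.52, 6.24 and 5.47 CPM in Ctrl+vehicle, 6.06, 8.95 and 8.52 CPM in Ctrl+FGF2 and 11.1, 8.22 and 9.26 CPM in Y/T dKD+FGF2. At d2.5 the groups were apart with knockdown libraries above Ctrl+FGF2, and at d5 the ranges of neighbouring groups overlapped. The fold change was -5.66 ± 0.13 (edgeR adjusted p = 8.49e-26) with FGF2 and 1.48 ± 0.26 (edgeR adjusted p = 9.63e-05) with the knockdown at d2.5. At d5 it was 0.46 ± 0.17 (edgeR adjusted p = 0.0293) with FGF2 and 0.27 ± 0.15 (edgeR adjusted p = 0.196) with the knockdown. The FGF2 call at d5 was lost when any of 4 libraries was left out (edgeR adjusted p from 0.0655 to 0.127) and with DESeq2 (adjusted p = 0.0695).

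Of the other genes, the beaded-filament chains of type VI were abundant and fell with FGF2 on both days. Col6a1 (chr10:76708792-76726168) stood at 4408, 4233 and 4235 CPM in Ctrl+vehicle, 2068, 1982 and 2041 CPM in Ctrl+FGF2 and 1741, 1808 and 1739 CPM in Y/T dKD+FGF2 at d2.5. At the later day the levels were 3759, 3840.1 and 3887 CPM in Ctrl+vehicle, 2631, 2747 and 2722 CPM in Ctrl+FGF2 and 2946, 3247 and 3039 CPM in Y/T dKD+FGF2. No groups overlapped on either day, and knockdown libraries were the lowest at d2.5 and above Ctrl+FGF2 at d5. Col6a1 changed by -1.09 ± 0.03 with FGF2 at d2.5 and -0.49 ± 0.04 at d5, and by -0.21 ± 0.03 and 0.18 ± 0.04 with the knockdown. Col6a2 changed by -1.50 and -0.80 with FGF2 and by -0.21 and 0.25 with the knockdown. Col6a3 fell less at d2.5, by 0.46 on the log2 scale, and by 0.72 at d5. With the knockdown it was called higher at d2.5 (0.14 ± 0.04, edgeR adjusted p = 0.00507), where Col6a1, Col6a2 and Col1a1 were lower, and its d5 value of 0.08 ± 0.05 (edgeR adjusted p = 0.288) did not pass. The neighbouring genes Col6a4, Col6a5 and Col6a6 on chromosome 9 had 9, 0 and 0 counts over all libraries.

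Col18a1, a basement membrane collagen whose end is released as endostatin, rose with FGF2 on both days and with the knockdown at d5. It stood at 128, 114 and 116 CPM in Ctrl+vehicle, 429, 434 and 426 CPM in Ctrl+FGF2 and 418, 451 and 408 CPM in Y/T dKD+FGF2 at d2.5. For d5 the values were 313, 361 and 339 CPM in Ctrl+vehicle, 579, 496 and 532 CPM in Ctrl+FGF2 and 884, 1024 and 910.1 CPM in Y/T dKD+FGF2. FGF2 libraries were above vehicle libraries on both days (1.84 ± 0.04, edgeR adjusted p = 2.27e-26 at d2.5 and 0.68 ± 0.06, edgeR adjusted p = 8.04e-08 at d5), and knockdown libraries overlapped with Ctrl+FGF2 at d2.5 (-0.02 ± 0.04, edgeR adjusted p = 0.708) and were above them at d5 (0.81 ± 0.06, edgeR adjusted p = 1.25e-08). Its relative Col15a1, at 4.39 to 33.9 CPM, fell by 0.36 with FGF2 at d2.5, and rose by 0.50 with the knockdown at d5. Col7a1, which forms the anchoring fibrils of skin, stood at 12.1, 9.41 and 9.65 CPM in Ctrl+vehicle, 6.90, 6.76 and 7.35 CPM in Ctrl+FGF2 and 8.94, 9.56 and 9.07 CPM in Y/T dKD+FGF2 at d2.5. Values at d5 were 15.9, 18.5 and 16.6 CPM in Ctrl+vehicle, 9.55, 9.52 and 9.69 CPM in Ctrl+FGF2 and 21.3, 24.0 and 21.0 CPM in Y/T dKD+FGF2, with knockdown libraries above both other groups. It changed by -0.58 ± 0.12 and -0.82 ± 0.10 with FGF2 and by 1.20 ± 0.10 (edgeR adjusted p = 3.06e-08) with the knockdown at d5. The knockdown call at d2.5 (0.38 ± 0.12, edgeR adjusted p = 0.0197) was lost when any of 4 libraries was left out (edgeR adjusted p from 0.0507 to 0.0679) and with DESeq2 (adjusted p = 0.0593).

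Membrane collagens were scarce. Col25a1, found on neurons and in developing muscle, was at 0.0645 to 0.276 CPM in Ctrl+vehicle, 0.422 to 0.727 CPM in Ctrl+FGF2 and 0.91 to 1.66 CPM in Y/T dKD+FGF2 libraries of d2.5. By d5 it was at 0.1 to 0.416, 0.895 to 1.29 and 1.73 to 2.55 CPM in the same order. The ranges did not overlap on either day, and it was called higher with FGF2 (1.98 ± 0.58 and 1.81 ± 0.45) and with the knockdown (1.17 ± 0.36 and 0.91 ± 0.29). Its counts over the libraries of a group, in the same order, were 6, 25 and 50 at d2.5 and 10, 37 and 69 at d5. At d2.5 Col25a1 passed the filter through the knockdown libraries, so it had to be higher there. At d5 it passed through the FGF2-treated libraries, so it had to be above Ctrl+vehicle. Col23a1 was at 0.276 CPM or less at d2.5. By d5 the values were 1.61, 1.91 and 2.42 CPM in Ctrl+vehicle, 6.34, 3.99 and 4.31 CPM in Ctrl+FGF2 and 1.27, 1.16 and 2.75 CPM in Y/T dKD+FGF2, and its FGF2 libraries were above those of both other groups (1.29 ± 0.27 with FGF2 and -1.54 ± 0.28 with the knockdown). Col17a1, a hemidesmosome collagen of epithelium at 1.31 CPM or less, was tested at d2.5 and was called in Y/T dKD+FGF2 against Ctrl+vehicle alone (-2.14 ± 0.49, edgeR adjusted p = 0.000299). Col13a1, Col14a1, Col22a1, Col26a1 and Col28a1 had 4, 14, 4, 1 and 45 counts over the 18 libraries and were not tested. Col19a1, Col6a5 and Col6a6 had 0 counts, which allows up to 3 counts over all libraries, so they were not detectable at this depth.

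Partner chains of a collagen did not keep a fixed ratio. The log2 ratio of Col1a1 to Col1a2 counts per length within a library, which needs no scaling, was 0.44 ± 0.01 (SD, n = 3) for Ctrl+vehicle, -0.48 ± 0.03 for Ctrl+FGF2 and -0.63 ± 0.03 for Y/T dKD+FGF2 at d2.5. It was 0.66 ± 0.04, 0.48 ± 0.01 and 0.59 ± 0.02 at d5. The level of the ratio depends on the exon lengths used (6563 and 12426 bases), and in plain counts Col1a2 exceeded Col1a1 in all 18 libraries. Differences between groups do not depend on these lengths. The difference between Ctrl+FGF2 and Ctrl+vehicle was -0.93 at d2.5 and -0.18 at d5, both without overlap (exact two-sided permutation test, p = 0.1, the smallest possible). The ratio of Col8a1 to Col8a2 moved furthest, from -1.87 ± 0.24 in Ctrl+vehicle to 3.31 ± 0.06 in Ctrl+FGF2 at d2.5, and was 0.90 ± 0.07 and 0.14 ± 0.09 at d5. The Col4a1 to Col4a2 ratio differed by 0.25 with FGF2 at d2.5 and by 0.18 with the knockdown at d5, and that of Col6a1 to Col6a2 by 0.41 and 0.31 with FGF2. The Col5a1 to Col5a2 ratio differed by -0.08 with FGF2 at d2.5 and -0.31 with the knockdown at d5. Of the 30 differences (5 pairs, 6 comparisons), 26 had no overlap between groups. The same share over other pairs of genes was not worked out, so this count does not show a trait particular to collagen partners.

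**Figure D4:**
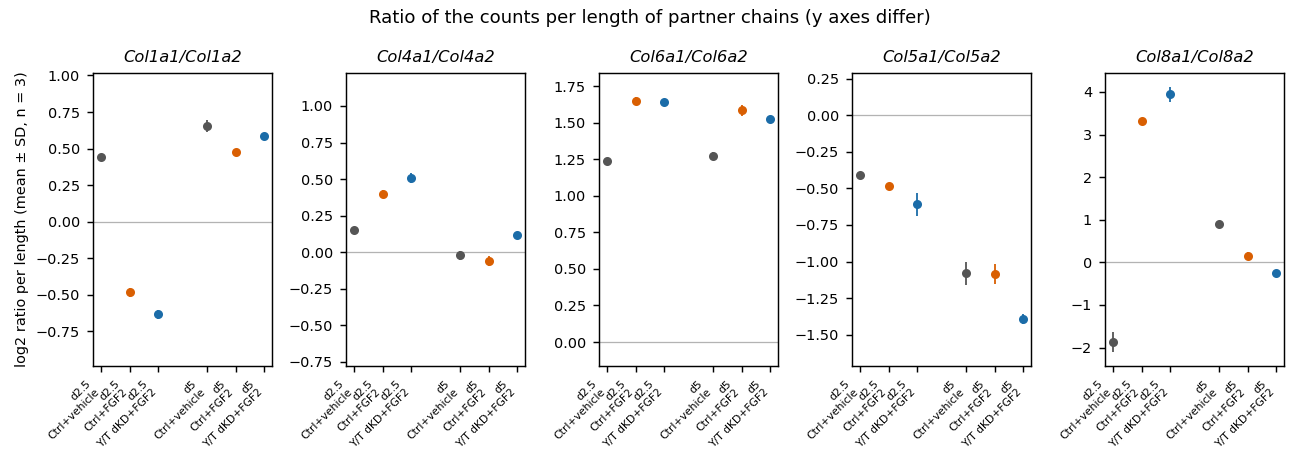
Log2 ratio of the counts per length of partner chains (y axis, mean ± SD of 3 libraries, range differs between panels) in the 6 groups (x axis). The Col1a1/Col1a2 ratio is lowest in the FGF2-treated groups at d2.5, and where 0 falls depends on the exon lengths used.

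Between d2.5 and d5 most collagen genes rose in every treatment. In the fit of all 18 libraries 32 members were tested. In Ctrl+vehicle 21 were higher at d5 (background 33.1%) and 9 lower (background 33.2%), with FGF2 29 higher (background 41.2%) and 2 lower (background 38.8%), and with FGF2 and the knockdown 29 higher (background 40.3%) and 2 lower (background 38.1%). Medians were 1.29, 2.06 and 2.11. Of the 26 members with a mean of at least 10 CPM over the 18 libraries, 18 were higher and 8 lower in Ctrl+vehicle, and 24 and 2 in each group with FGF2. In Ctrl+vehicle the largest rises were those of Col24a1 (7.98 ± 0.24) and Col8a1 (4.62 ± 0.06), and the largest falls those of Col9a3 (-3.01 ± 0.42) and Col10a1 (-2.76 ± 0.11). Over the Ctrl+vehicle libraries Col9a3 had 76 counts at d2.5 and 7 at d5. It passed the filter through Ctrl+vehicle at d2.5 alone, so it had to fall. Col24a1 had 4 counts over the d2.5 libraries of Ctrl+vehicle and passed the filter through d5, so it had to differ, and its value was 8.40 without Ctrl+vehicle replicate 3 of d2.5 and 7.38 without replicate 2. With FGF2 the largest rises were those of Col9a2 (9.25 ± 0.35) and Col2a1 (7.89 ± 0.28), also in the knockdown (7.99 and 6.63), on 4 and 42 counts in Ctrl+FGF2 at d2.5. Col15a1 and Col5a3 were the 2 members that fell, by 2.08 and 0.76 with FGF2 and by 1.67 and 0.84 with FGF2 and the knockdown. Col1a1 rose by 1.34, 2.92 and 3.44 in the 3 groups in the same order, and Col12a1 by 2.57, 5.61 and 5.58. Day and batch cannot be told apart in these values.

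Whether an effect differed between days was tested as the effect at d5 minus that at d2.5. For FGF2, 21 of 32 members had a higher value at d5 (background 31.8%) and 6 a lower one (background 29.1%), with a median of 1.00. For the knockdown, 13 had a higher value at d5 (background 11.6%) and 4 a lower one (background 9.35%), with a median of 0.23. Of the fibrillar members, 10 of 11 had a higher value for FGF2 at d5. All 10 were lower with FGF2 at d2.5, so the higher value is a weaker fall at d5, as for Col1a1 (-2.53 and -0.93). For Col2a1 (-8.87 and 0.15) it is a d5 value that was not called. The remaining fibrillar member, Col24a1, could not be tested at d2.5 by itself, and its value of -2.67 ± 0.84 rests there on 4 counts in Ctrl+vehicle and 8 in Ctrl+FGF2. It was -2.08 without Ctrl+vehicle replicate 2 of d2.5 and -3.10 without replicate 3. Col4a1, Col4a2 and Col8a1 were the 3 network members with a lower value for FGF2 at d5, from a rise at d2.5 to a fall at d5.

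Genes for making and removing collagen were read from 4 lists, with the background given as the shares of all genes called lower and higher. Of 21 tested genes for folding and modification in the endoplasmic reticulum, 20 were lower and 1 higher with FGF2 at d2.5 (background 34.1% and 33.5%), and 13 were lower and 2 higher at d5 (background 23.7% and 23.5%). Among them were Creb3l1, a factor that drives collagen genes in osteoblasts (-3.82 at d2.5 and -1.64 at d5), the isomerase Fkbp14 (-1.77 at d2.5) and the prolyl hydroxylase P4ha2 (-1.12 at d5). Their levels summed to 5361 to 5494 CPM in Ctrl+vehicle and 3656 to 3722 CPM in Ctrl+FGF2 at d2.5. With the knockdown 7 were lower and 2 higher at d2.5 (background 13.6% and 10.8%), and 4 lower and 9 higher at d5 (background 16.1% and 15.6%). Of 16 genes for processing, fibril assembly and crosslinking, 12 were lower and 2 higher with FGF2 at d2.5 (background 34.1% and 33.5%), and 9 lower and 3 higher at d5 (background 23.7% and 23.5%). The small proteoglycans that bind fibrils led these, with Fmod at -8.83 and Dcn at -4.69 at d2.5 and Dcn at -2.18 at d5. With the knockdown at d5 4 were lower, among them the crosslinking oxidases Lox (-1.03) and Loxl4 (-0.97), and 7 higher (background 16.1% and 15.6%).

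Of 9 collagen receptors tested, 6 were lower and 2 higher with FGF2 at d2.5 (background 34.1% and 33.5%), and 3 lower and 5 higher at d5 (background 23.7% and 23.5%). The integrin chains Itga11 and Itga2, which both bind fibrillar collagen, moved opposite ways at d2.5 (-6.14 and 3.14). With the knockdown 2 were lower and 2 higher at d2.5 (background 13.6% and 10.8%), and 4 lower and 1 higher at d5 (background 16.1% and 15.6%). Of the genes that degrade collagen, 6 of 7 tested were lower and 1 higher with FGF2 at d2.5 (background 34.1% and 33.5%), led by the collagenase Mmp13 (-7.07), and of 10 tested at d5, 6 were lower and 2 higher (background 23.7% and 23.5%), led by Ctsk (-4.43), the main collagen protease of osteoclasts. With the knockdown at d5 1 was lower and 7 higher (background 16.1% and 15.6%), with Ctsk at 1.64, Mmp13 at 1.59 and Fap at 1.36. The summed level of this list at d5 was 8780.2 to 10064 CPM in Ctrl+vehicle, 7041 to 7385 CPM in Ctrl+FGF2 and 10339.5 to 11090.2 CPM in Y/T dKD+FGF2.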

How the data were processed

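The authors deposited 1 table of raw read counts per gene for each of the 18 libraries of polyadenylated RNA, unpooled, with unstranded, forward-strand and reverse-strand columns. Per the labels, the submitters' processing notes name FastQC, STAR, Picard, featureCounts and mm10, and the versions and the annotation are not given in the sources used here. Reverse-strand counts, 96.0% to 96.6% of the stranded counts, were used. Rows that name no gene (27.0% to 34.4% of reads) were left out. Identifiers were matched to GENCODE M21 (55154 of 55335). Upstream sequences came from the RefSeq promoter table (GRCm38.p6).

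Counts were filtered with filterByExpr, scaled with TMM and tested with edgeR 4.0.16 (R 4.3.3) by quasi-likelihood, in 1 fit per day over 9 libraries for groups and 1 fit over all 18 libraries for days and differences between days. P-values were adjusted by Benjamini-Hochberg over all genes tested, with a threshold of 0.05. Shares and within-library ratios were compared by exact two-sided permutation tests in Python 3.11.15 with SciPy 1.17.1. The edgeR fit was tested on simulated counts. Total gene counts set the precision, and intervals and floors cover counting error only.

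The members and the 12 lists of other genes were chosen with earlier results of these data known. Per-library values are given for 11 preset members and, per comparison, for the called members with the largest rises and falls where the mean log2 CPM was 0 or more. Genes of the lists are given by count with at most 3 of the largest changes. Some further members are given with values chosen after these were seen. Alternatives were RLE, upper-quartile and no scaling factors, other filters, unstranded counts, DESeq2 1.42.0, a threshold of 0.01, a replicate block, other sets of libraries in the fit and leaving out each library.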

Additional observations from a re-analysis of the deposited data

Results flagged for a closer look

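Of the 32 members tested over both days, 27 had an FGF2 effect that differed between d2.5 and d5 by the edgeR test of the difference itself. Over all genes tested, 31.8% had a higher value at d5 and 29.1% a lower one by this test. The log2 effect at d5 minus that at d2.5 was 6.1 for Col10a1, 2.24 for Col11a1, 2.26 for Col11a2, 3.03 for Col12a1, 0.32 for Col16a1, 1.58 for Col1a1, 0.83 for Col1a2, 3.13 for Col20a1, 3.68 for Col27a1, 9 for Col2a1, 1.66 for Col3a1, 1.54 for Col4a5, 1.98 for Col4a6, 0.82 for Col5a1, 0.75 for Col5a2, 0.5 for Col5a3, 0.58 for Col6a1, 0.67 for Col6a2, 3.48 for Col8a2, 3.78 for Col9a1 and 7.91 for Col9a2. It was -1.19 for Col18a1, -2.67 for Col24a1, -0.7 for Col4a1, -0.41 for Col4a2, -0.29 for Col6a3 and -2.45 for Col8a1. The Col24a1 value rests on 4 and 8 counts at d2.5. That of Col20a1 rests on 14 counts in Ctrl+vehicle and 2 in Ctrl+FGF2 at d2.5, where it was not tested. In Ctrl+FGF2 at d2.5 Col9a1 had 1 count, Col9a2 had 4 and Col11a2 had 18. These last members passed the filter of d2.5 through Ctrl+vehicle, so their effect there had to be a fall.

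The knockdown effect differed between the days in 17 of the 32 members by the same test, where 11.6% of all genes had a higher value at d5 and 9.35% a lower one. The difference of the log2 effects was 0.33 for Col16a1, 0.83 for Col18a1, 0.52 for Col1a1, 0.27 for Col1a2, 0.55 for Col3a1, 0.32 for Col4a1, 0.25 for Col4a2, 0.3 for Col5a1, 0.48 for Col5a2, 0.39 for Col6a1, 0.45 for Col6a2, 0.82 for Col7a1 and 0.36 for Col8a2. It was -1.22 for Col10a1, -0.46 for Col11a1, -0.22 for Col4a5 and -0.66 for Col8a1. Day and batch cannot be told apart in any of these values.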

How the results depend on the processing

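Of 510 alternative counts of called members over 22 counts, 507 were within 1.5 times the reported count. The exception was the 6 members called higher with the knockdown at d2.5, which were 3 at a threshold of 0.01 and between 3 and 7 when 1 library was left out. Of 3756 alternative values of 164 results of the preset and largest-change members, 3703 kept their direction and side of the threshold, 26 lost the call, 20 gained it and 7 changed sign, without a call on either side. With 1 library left out, the log2 values of these ran from -0.0082 to 0.018 for Col1a2 with the knockdown at d2.5, -0.016 to 0.057 for Col5a1 with the knockdown at d5, -0.0020 to 0.33 for Col2a1 with FGF2 at d5 and -0.071 to 0.0091 for the difference between days of the knockdown effect on Col12a1. With library totals, Col5a1 with the knockdown at d5 was at -0.0039 and Col3a1 between knockdown and vehicle cells at d5 was at 0.0034. Deviations of libraries with the same replicate number correlated between -0.082 and 0.157, and those with different numbers between -0.154 and 0.111. Between Ctrl+vehicle and Ctrl+FGF2 at d5 the same-number values were 0.145, 0.157 and 0.027, and all different-number values were negative. With 3 libraries per group these values cannot decide whether the numbers pair the libraries. With the replicate block all 22 counts stayed within 1.5 times and 1 of 164 named calls changed, that of Col4a2 with the knockdown at d5 (log2 0.11, edgeR adjusted p = 0.02).

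With library totals and no factors, the median of all genes moved by 0.10 (log2) in Ctrl+FGF2 against Ctrl+vehicle at d5, where 35.5% of genes were then called higher and 15.5% lower (23.5% and 23.7% with TMM), and 8 and 16 members (8 and 19). Between knockdown and vehicle cells at d5 these were 29.1% and 15.2% (20.7% and 21.1%), and 9 and 13 members, as with TMM. Between days in Ctrl+vehicle they were 20.6% and 50.9% (33.1% and 33.2%), and 21 and 9 members, as with TMM, with the median moved by -0.24. It moved by -0.14 with FGF2 and by -0.16 with FGF2 and the knockdown. The cause was not tested. Depth limits the 11 members with 45 counts or fewer over all libraries, which were not tested.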
